A study of Mus musculus with 11 samples.

Results

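Mitochondrial ribosomal protein genes encode the protein part of the mitoribosome, the ribosome inside mitochondria. They were taken as the protein-coding mouse genes whose symbol starts with Mrpl or Mrps followed by a number and whose mean level over all libraries was at least 1 CPM, where CPM is the count of a gene scaled to the same library total. This gave 78 genes of 34547 measured genes. All 78 matching symbols reached the minimum and all 78 passed the filter on low counts. By the known structure of the mammalian mitoribosome, 51 of the products belong to the large subunit and 26 to the small subunit. Within the large subunit, 30 have a bacterial counterpart and 21 do not. Within the small subunit, 16 have a bacterial counterpart and 10 do not. The remaining gene, Mrps36, carries a ribosomal symbol, although its product is known as a part of the α-ketoglutarate dehydrogenase complex.

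The mitoribosome translates only the few mRNAs made from mitochondrial DNA, which encode core subunits of the respiratory chain and of the ATP synthase. Its ribosomal RNAs are transcribed inside the organelle, whereas every protein of both subunits is encoded in the nucleus, made in the cytosol and imported. Compared with its bacterial relatives it has lost RNA and gained proteins, and the large subunit is tethered to the inner membrane, where the nascent chains are inserted. Podocytes wrap the capillaries of the kidney glomerulus with their foot processes and form part of the filtration barrier.

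RNA was sequenced from podocytes that had been sorted from digested glomeruli as living cells with mTomato fluorescence. Nephritic MyD88pko podocytes gave 3 libraries and nephritic PodTOM podocytes gave 3 libraries, all from male mice aged 8 to 16 weeks on day 5 after nephrotoxic serum, which was given on 2 days at 9 µl per g of body weight and starts an antibody-mediated glomerulonephritis (nephrotoxic nephritis, NTN). Untreated MyD88pko podocytes gave 2 libraries and untreated PodTOM podocytes gave 3 libraries. The study's methods state this sex and this age range for the nephritic mice only. All groups carried the PodTOM transgene on a C57BL/6 background (C57BL/6N by the study's methods), which drives iCre and the fluorophore mTomato in podocytes. In MyD88pko mice both Myd88 alleles were floxed (Myd88flox/flox), and in the PodTOM mice used for sorting both were wild type. The genotype therefore concerns Myd88 in podocytes only, and other glomerular cells keep the gene. Library titles differ between the genotypes in their prefix, so a difference between genotypes and one between title series cannot be told apart. The labels say that some libraries were pooled, without naming them. The number of mice behind each library is not stated, and p-values therefore refer to the spread among libraries, part of which may be technical.

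Estimated counts summed to 20080140 to 32764201 in nephritic libraries and to 14563271 to 19483013 in untreated libraries. Myd88 itself, the adaptor of Toll-like receptors, lay between 0.191 and 0.949 CPM in MyD88pko libraries and between 5.80 and 13.9 CPM in PodTOM libraries. The 10 podocyte markers were all detected in every library and summed to 30460 to 41320 CPM in nephritic libraries, against 41750 to 48760 CPM in untreated libraries. The sum of 8 glomerular endothelial markers was 81.2 to 206.3 CPM in nephritic libraries, against 38.5 to 86.6 CPM in untreated libraries, and that of 8 mesangial and smooth muscle markers was 107.5 to 227.7 CPM, against 84.7 to 124.6 CPM. The sum of 10 leukocyte markers overlapped between conditions (63.4 to 121.2 CPM in NTN, 70.0 to 100.2 CPM untreated). Counts on 549 vomeronasal receptor genes, which podocytes are not known to use, stood at 130.5 to 474.7 CPM in nephritic libraries and at 60.7 to 91.2 CPM in untreated ones. Nephritic PodTOM replicate 1 and nephritic MyD88pko replicates 1 and 2 had the most of this signal, and counts of calls are also given without these 3 libraries. Whether these shifts had a part in the results below was not tested. In bulk samples, fewer cells of a type and less RNA per cell cannot be told apart.

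The start regions of 69 of the 78 genes were found among RefSeq promoters (GRCm38.p6), each 250 bases before to 50 bases after a start. They are described here because factors of the ETS family (among them GABP), NRF1 and YY1 are known as activators of nuclear genes for mitochondrial proteins. The letters CCGGAAG, which ETS factors bind, stood on either strand in 26 of the 69 genes (37.7%), against 13.4% of 16502 protein-coding genes. GCGCANGCG, for NRF1, stood in 16 (23.2%, against 10.04%), and AANATGGCG, for YY1, in 11 (15.9%, against 3.82%). The SP1 box GGGGCGGGG was found in 13 (18.8%, against 17.9%) and the TATA box TATAAA in 5 (7.25%, against 14.3%). Genes with several listed starts count once, and there were 1.09 windows per member and 1.22 per protein-coding gene. A match is only a run of letters, and binding was not measured.

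The 120 bases before the start of 8 genes on which the comparisons below turn are printed with a matched motif in capitals. Mrpl34 and Mrpl52, large subunit genes that rose in NTN, hold the ETS letters between 31 and 47 bases before the start, on the gene's strand in Mrpl34 (chr8:71464806-71464925, plus strand) and reversed in Mrpl52 (chr14:54426789-54426908, plus strand):
Mrpl34: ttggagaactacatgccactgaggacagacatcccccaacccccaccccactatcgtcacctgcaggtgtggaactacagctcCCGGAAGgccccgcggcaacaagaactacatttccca
Mrpl52: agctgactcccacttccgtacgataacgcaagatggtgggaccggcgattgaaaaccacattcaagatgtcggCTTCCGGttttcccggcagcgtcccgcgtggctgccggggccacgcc

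Mrps24 (chr11:5707702-5707821, minus strand) and Mrps36 (chr13:100744660-100744779, minus strand), which also rose, have the SP1 letters there, reversed in Mrps24:
Mrps24: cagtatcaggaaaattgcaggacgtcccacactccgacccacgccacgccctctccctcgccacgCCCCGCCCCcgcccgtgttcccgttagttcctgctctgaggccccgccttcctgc
Mrps36: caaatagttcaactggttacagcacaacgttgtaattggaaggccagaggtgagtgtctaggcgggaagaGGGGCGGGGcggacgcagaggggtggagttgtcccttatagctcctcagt

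Mrpl41 (chr2:24975099-24975218, minus strand) and Mrpl42 (chr10:95501950-95502069, minus strand) rose in both genotypes, and Mrpl55 (chr11:59202366-59202485, plus strand) and Mrps17 (chr5:129715377-129715496, plus strand) were the only members called lower. None of these 4 stretches holds any of the 5 motifs, so they are shown without capitals:
Mrpl41: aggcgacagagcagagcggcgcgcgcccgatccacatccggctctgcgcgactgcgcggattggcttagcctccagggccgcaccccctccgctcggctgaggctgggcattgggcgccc
Mrpl42: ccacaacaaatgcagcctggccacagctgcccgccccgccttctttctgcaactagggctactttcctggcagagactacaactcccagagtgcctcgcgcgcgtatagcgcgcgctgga
Mrpl55: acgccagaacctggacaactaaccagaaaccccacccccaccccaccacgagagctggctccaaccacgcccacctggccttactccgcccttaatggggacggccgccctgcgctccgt
Mrps17: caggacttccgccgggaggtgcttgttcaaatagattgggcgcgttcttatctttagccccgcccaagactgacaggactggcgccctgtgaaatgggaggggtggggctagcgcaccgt

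Start sites of 33 members (42.3%) lay within 1000 bases of the start of a protein-coding gene on the opposite strand, against 10.8% of 21957 protein-coding genes. Mrps11 and Mrpl46 are such a pair with each other. Mrpl36 shares its start region with Ndufs6, a subunit of respiratory complex I, and Mrpl47 with Ndufb5, another subunit of it. The members lay on 17 different chromosomes, with 11 of them on chromosome 11 and 8 on chromosome 17.

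Levels of different genes were compared as TPM, in which counts are divided by transcript length and then scaled to the same sum in every library. Over all 11 libraries the member means spanned 40.4-fold, with a median of 19.0 TPM and quartiles of 12.5 and 30.0 TPM. The highest were Mrpl48, a mitochondria-specific protein of the large subunit (228 TPM), Mrpl33, the counterpart of bacterial L33 (135 TPM), Mrpl30 (107 TPM), Mrpl20 (89.98 TPM) and Mrpl52 (87.6 TPM). The lowest were Mrpl46 (7.69 TPM), Mrpl11 (6.90 TPM), Mrpl44 (6.84 TPM), Mrps30 (5.92 TPM) and Mrpl47 (5.64 TPM). Neighbours in this order often did not differ beyond their spread: untreated PodTOM libraries held 122 ± 39.5 TPM of Mrpl30 and 104 ± 8.85 TPM of Mrpl20 (SD, n = 3), and 3.62 ± 2.75 TPM of Mrpl44 and 6.35 ± 2.10 TPM of Mrps30.

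**Figure D1:**
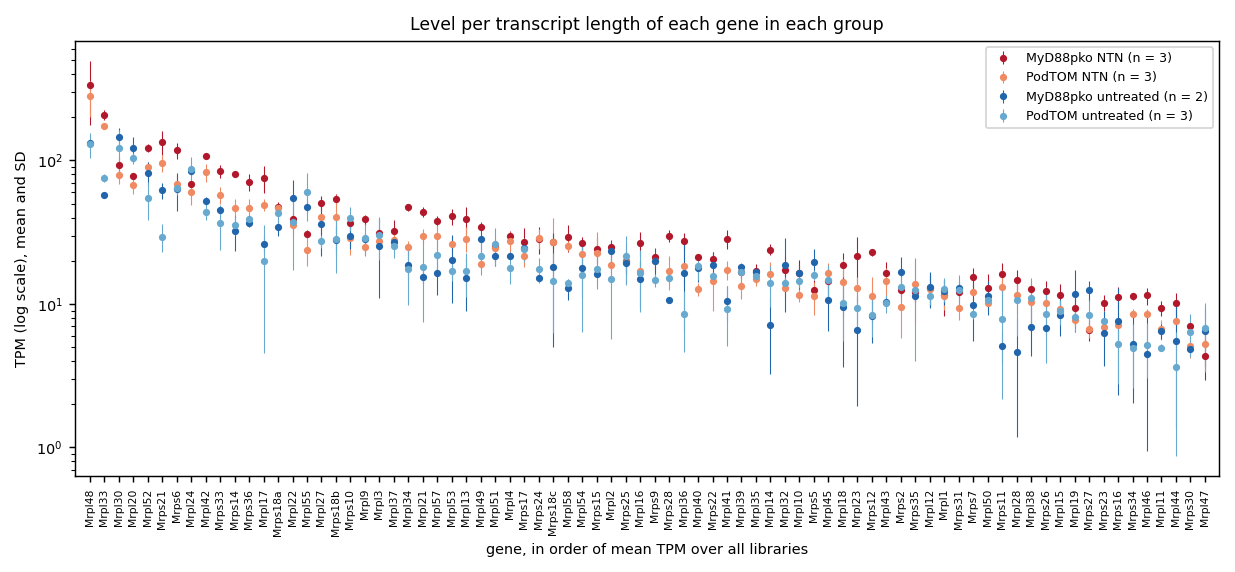
TPM (log axis) of each of the 78 mitochondrial ribosomal protein genes, with a point for the mean and a bar for the SD of each of the 4 groups, in order of the mean over 11 libraries. Mrpl48 stands highest at 228 TPM and Mrpl47 lowest at 5.64 TPM.

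Summed over the 78 genes, the level was 1515, 1441 and 1655 CPM in nephritic MyD88pko libraries, against 1236 and 1158 CPM in untreated MyD88pko libraries. Nephritic PodTOM libraries held 1429, 1384 and 1511 CPM, against 1135, 1185 and 1146 CPM in untreated PodTOM libraries. In each genotype every nephritic library lay above every untreated library. The median over all genes, each centred on its own mean log2 level, separated the conditions as well. It was -0.00401 to 0.134 in nephritic libraries and -0.186 to -0.0694 in untreated libraries. The sum also includes Mrpl48, whose calls did not hold on coding transcripts, as described below. Whether the summed level of the members rose beyond the shift of all genes was not tested. As summed TPM the means were 3069 ± 211 in nephritic MyD88pko and 2360 ± 156 in nephritic PodTOM podocytes (SD, n = 3 each), and 1999 ± 78.6 in untreated MyD88pko (n = 2) and 1891 ± 108 in untreated PodTOM podocytes (n = 3). Mitochondrially encoded transcripts, the ones the mitoribosome reads among them, took 3.35% to 4.88% of counts in nephritic libraries, against 4.99% to 6.29% in untreated libraries, with no overlap.

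In PodTOM podocytes, NTN was compared with the untreated state to ask how nephritis changes these genes. Of the 78 members, 15 were called higher (19.2%) and 1 lower (1.28%) at an adjusted p under 0.05 in edgeR's quasi-likelihood test with Benjamini-Hochberg adjustment over 21200 genes. Among all genes tested, 15.9% were called higher and 9.93% lower, so that the share of raised members was close to the background. A positive log2 fold change was found in 61 members (78.2%), against 58.1% of all genes. The members had a median log2 fold change of 0.37, all genes tested one of 0.19, and 50 of the 78 exceeded the median of all genes. With no filter on low counts the order of these medians turned, at 0.37 for the members and 0.51 for all genes. In 30 members (38.5%) all nephritic libraries lay above all untreated libraries and in 2 members below, against 26.8% and 16% of all genes. By class, 7 of 30 large subunit genes with a bacterial counterpart were higher and 1 was lower, and 4 of 21 mitochondria-specific large subunit genes, 3 of 16 small subunit genes with a bacterial counterpart and 1 of 10 mitochondria-specific small subunit genes were higher. The counts of members and of all genes both depended on single libraries: 9 members were higher without nephritic replicate 1 (9.61% of all genes), 7 without nephritic replicate 2 (11.1%), 8 without untreated replicate 3 (10.9%) and 5 without the 3 libraries with most vomeronasal signal (7.16%).

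In MyD88pko podocytes the same comparison gave 18 members higher (23.1%) and 1 lower (1.28%), against 11.3% and 8.22% of all genes. A positive log2 fold change was found in 58 members (74.4%), against 56.5% of all genes, and the median was 0.49, against 0.16 over all genes (0.50 against 0.63 with no filter). All nephritic libraries lay above both untreated libraries in 41 members (52.6%) and below them in 6, against 29% and 22.5% of all genes. By class, 6 of 30 and 5 of 21 large subunit genes were higher, with and without a bacterial counterpart, and 5 of 16 and 1 of 10 small subunit genes, beside Mrps36. With 2 untreated libraries this count rested heavily on each of them: 4 members were higher without untreated replicate 1 (3.74% of all genes) and 2 without untreated replicate 2 (2.81%). It was 8 without nephritic replicate 1 (6.60%). Without the 3 libraries with most vomeronasal signal, which leaves 1 nephritic MyD88pko library, it was 4 (3.55%).

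The comparisons in the 2 genotypes share no libraries, but both come from 1 fit that estimates the spread from all 11 libraries. Fitted with only the groups compared, 10 members were higher in PodTOM podocytes (14.4% of all genes) and 23 in MyD88pko podocytes (13.8%). The counts that follow are those of the joint fit. Of the members called higher, 8 were called in both, which is 53.3% of the PodTOM calls and 44.4% of the MyD88pko calls, and 25 were called in at least 1. Over all genes, 52.3% of the PodTOM calls and 73.9% of the MyD88pko calls were called higher in both. All 15 PodTOM calls had a positive log2 fold change in MyD88pko podocytes and all 18 MyD88pko calls had one in PodTOM podocytes. Across the 78 genes, which are not independent replicates, the fold changes correlated with a Pearson r of 0.68 and a Spearman rho of 0.73. Neither this correlation nor the agreement in sign was computed over all genes, so they are not shown to be particular to the members. Libraries did not overlap in either genotype, with NTN higher, in 27 members, and in 16.6% of all genes.

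**Figure D2:**
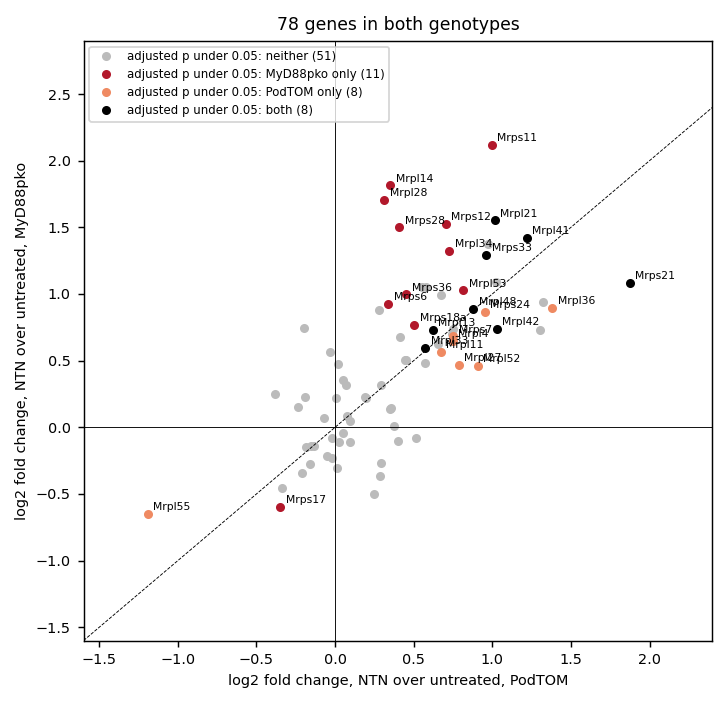
Log2 fold change of NTN over untreated for each of the 78 members, MyD88pko against PodTOM, coloured by the comparison in which the member was called. The 8 members called higher in both lie in the upper right, and Mrpl55 and Mrps17 are the only members called lower.

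Mrps21, the counterpart of bacterial S21 on the platform of the small subunit, had the smallest adjusted p of the members in PodTOM podocytes. It stood at 25.7, 17.2 and 26.9 CPM in nephritic MyD88pko libraries, against 9.37 and 12.6 CPM in untreated ones, and at 16.7, 23.9 and 17.4 CPM in nephritic PodTOM libraries, against 4.71, 5.99 and 5.09 CPM. The groups did not overlap in either genotype, and the untreated MyD88pko values lay above the untreated PodTOM values. The gene rose 2.12-fold in MyD88pko podocytes (log2 fold change 1.09 ± 0.29 SE, adjusted p = 0.0148) and 3.67-fold in PodTOM podocytes (1.88 ± 0.26, adjusted p = 0.000129). It lies on chr3:95862634-95871519, minus strand (GRCm38).

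Mrps33, a mitochondria-specific protein of the small subunit, held 31.6, 27.0 and 41.4 CPM in nephritic MyD88pko libraries, against 16.3 and 10.8 CPM in untreated ones. In PodTOM podocytes it held 26.3, 26.2 and 26.0 CPM in NTN, against 10.04, 13.9 and 16.2 CPM untreated. The nephritic PodTOM values were nearly identical, and the log2 fold changes were 1.30 ± 0.27 (adjusted p = 0.00381) in MyD88pko and 0.96 ± 0.23 (adjusted p = 0.00742) in PodTOM podocytes. It was the only one of the 10 mitochondria-specific small subunit genes called in either genotype.

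Among the small subunit genes with a bacterial counterpart, Mrps24, the counterpart of S3 at the mRNA entrance, stood at 16.0, 12.9 and 16.1 CPM in nephritic PodTOM libraries, against 10.7, 6.57 and 6.03 CPM in untreated ones (log2 fold change 0.95 ± 0.27, adjusted p = 0.017). In MyD88pko podocytes it stood at 11.8, 14.6 and 11.7 CPM in NTN, against 6.504 and 7.41 CPM, which did not pass (0.87 ± 0.31, adjusted p = 0.0561). Mrps7, the counterpart of S7 in the head of the small subunit, was called in PodTOM podocytes with a log2 fold change of 0.75 ± 0.27 (adjusted p = 0.0468). It held 12.3, 17.2 and 13.0 CPM in nephritic PodTOM libraries, against 9.89, 8.16 and 7.23 CPM. Both genes separated nephritic from untreated libraries in both genotypes, whichever side of the threshold they fell on.

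The small subunit genes Mrps28, Mrps11, Mrps6 and Mrps12 were called in MyD88pko podocytes alone, without a called difference between the responses. Mrps28, the counterpart of S1, stood at 9.34, 8.61 and 13.1 CPM in nephritic MyD88pko libraries, against 3.64 and 3.67 CPM untreated (1.5 ± 0.36, adjusted p = 0.00924), and at 5.95, 5.47 and 9.19 CPM in nephritic PodTOM libraries, against 5.33, 5.35 and 4.84 CPM. Mrps11, the counterpart of platform protein S11, stood at 6.35, 6.03 and 10.01 CPM in nephritic MyD88pko libraries, against 1.69 and 1.74 CPM (2.12 ± 0.57, adjusted p = 0.0162). Its PodTOM values were 8.24, 4.70 and 5.36 CPM in NTN, against 0.85, 4.18 and 4.02 CPM (1.00, adjusted p = 0.12). Both genes were below 4 CPM in the untreated MyD88pko libraries, so the fold changes rest on low values.

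Mrps6 held 43.9, 34.5 and 54.3 CPM in nephritic MyD88pko libraries, against 27.7 and 18.9 CPM untreated, and rose by a log2 fold change of 0.93 ± 0.25 (adjusted p = 0.0183). In PodTOM podocytes it held 27.6, 26.7 and 35.9 CPM in NTN, against 28.0, 24.4 and 19.1 CPM. Of the 31-base words of Mrps6, 12.6% occur in other genes, among them the transporter gene Slc5a3, which fell in MyD88pko podocytes (-0.89, adjusted p = 0.00807). Mrps12, whose bacterial counterpart lines the decoding centre, stood at 6.35, 6.502 and 9.02 CPM in nephritic MyD88pko libraries, against 3.19 and 1.87 CPM (1.53 ± 0.47, adjusted p = 0.0317). In PodTOM podocytes Mrps12 overlapped between the conditions, with 4.12, 5.82 and 2.70 CPM in NTN and 1.70, 3.13 and 2.89 CPM untreated.

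The remaining named small subunit genes did not pass in either genotype. Mrps34, which is known to be needed for a stable small subunit, held 5.05, 4.82 and 5.57 CPM in nephritic MyD88pko libraries, against 1.69 and 3.14 CPM, and 3.65, 4.85 and 4.60 CPM in nephritic PodTOM libraries, against 3.09, 2.49 and 0.88 CPM. Its groups did not overlap, with log2 fold changes of 1.09 (adjusted p = 0.133) and 1.02 (adjusted p = 0.0984), but 73.8% of its 31-base words are shared, mostly with Mapk8ip3. Mapk8ip3 had log2 fold changes of -0.31 in MyD88pko and 0.08 in PodTOM podocytes. Nme3, which overlaps 37.0% of the exonic bases of Mrps34 on the same strand, had 2.61 (adjusted p = 0.00222) and 1.00 (adjusted p = 0.0722). Whether these genes had a part in the values of Mrps34 was not tested. Mrps22, a mitochondria-specific protein, and Mrps27, a pentatricopeptide repeat protein, had log2 fold changes of -0.11 and -0.31 in MyD88pko and of 0.02 and 0.01 in PodTOM podocytes. For Mrps22 in PodTOM podocytes the 95% interval ran from -0.59 to 0.64.

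**Figure D3:**
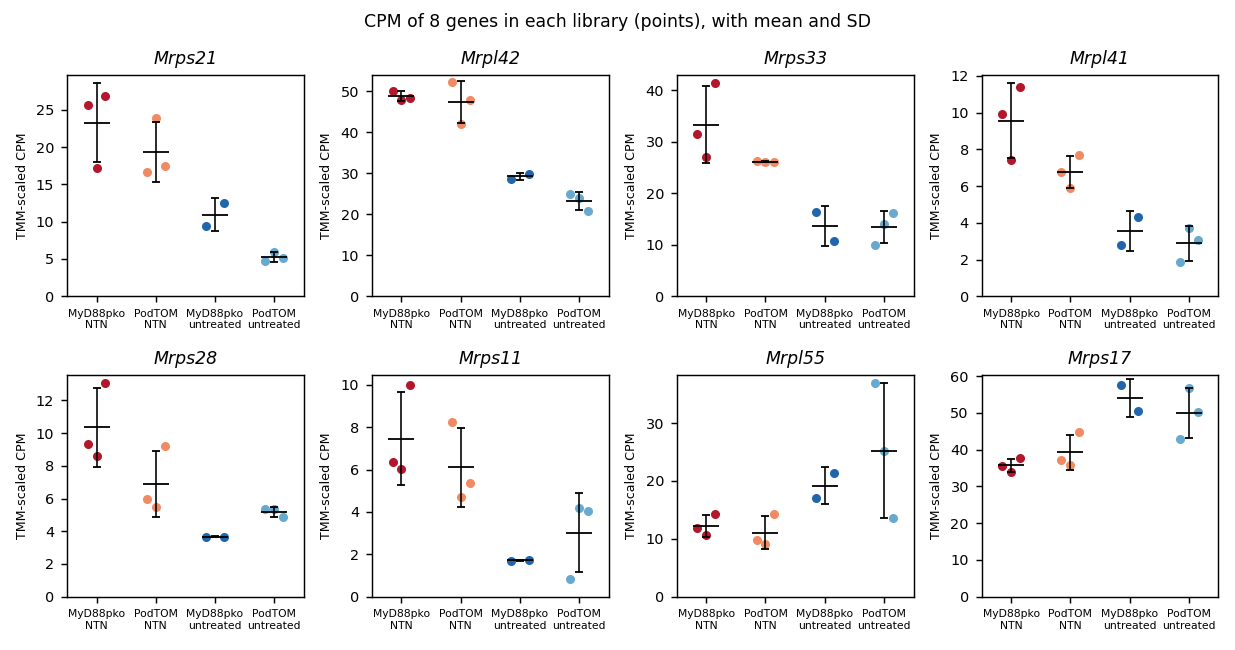
TMM-scaled CPM of 8 members, 1 panel per gene, with the 4 groups on the x axis, a point for each of 11 libraries and bars for the mean and SD. For Mrps21, nephritic PodTOM libraries lie between 16.7 and 23.9 CPM and untreated PodTOM libraries between 4.71 and 5.99 CPM.

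In the large subunit, Mrpl42, a mitochondria-specific protein, was among the members called higher in both genotypes. Nephritic MyD88pko libraries held 50.2, 48.0 and 48.4 CPM, against 28.7 and 29.9 CPM in untreated ones, and nephritic PodTOM libraries held 52.3, 42.0 and 47.9 CPM, against 24.95, 23.9 and 20.9 CPM. The log2 fold changes were 0.74 ± 0.18 (adjusted p = 0.0102) and 1.03 ± 0.16 (adjusted p = 0.000355), with no overlap in either genotype. It lies on chr10:95480805-95501940, minus strand (GRCm38), and together with Mrps21 it kept its PodTOM call under every alternative that was run.

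Mrpl41, a mitochondria-specific protein also known to bind Bcl2, stood at 9.90, 7.41 and 11.4 CPM in nephritic MyD88pko libraries, against 2.80 and 4.34 CPM (1.42 ± 0.40, adjusted p = 0.0197). PodTOM libraries held 6.74, 5.89 and 7.68 CPM in NTN, against 1.85, 3.71 and 3.08 CPM untreated (1.22 ± 0.35, adjusted p = 0.0174). Mrpl21, a counterpart of bacterial L21, held 13.1, 14.6 and 16.7 CPM in nephritic MyD88pko libraries, against 5.01 and 5.07 CPM (1.55 ± 0.40, adjusted p = 0.0135), and 10.6, 11.9 and 9.57 CPM in nephritic PodTOM libraries, against 7.72, 5.88 and 2.26 CPM (1.02 ± 0.35, adjusted p = 0.0396). Both genes separated the conditions in both genotypes. Mrpl13, Mrpl33 and Mrpl48 complete the members called higher in both, and their transcripts are described below.

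Large subunit genes called in PodTOM podocytes alone included Mrpl36, the counterpart of the smallest bacterial ribosomal protein. It held 8.71, 11.7 and 6.78 CPM in nephritic PodTOM libraries, against 1.93, 4.66 and 3.77 CPM (1.38 ± 0.38, adjusted p = 0.0141). Mrpl52, a mitochondria-specific protein whose ETS letters are printed above, held 17.8, 15.9 and 15.1 CPM, against 7.88, 11.4 and 6.66 CPM (0.91 ± 0.25, adjusted p = 0.0145). Mrpl4, whose bacterial counterpart lines the exit tunnel, held 18.9, 26.3 and 21.0 CPM, against 10.7, 10.7 and 18.0 CPM (0.75 ± 0.25, adjusted p = 0.0348). In each of these 3 genes the lowest nephritic PodTOM library lay above the highest untreated one. Mrpl27, whose bacterial counterpart reaches the peptidyl transferase centre, held 12.5, 12.7 and 20.7 CPM, against 9.66, 8.00 and 8.93 CPM (0.79 ± 0.28, adjusted p = 0.0464), and 38.9% of its 31-base words are shared, most of them with a pseudogene that had almost no counts. In MyD88pko podocytes Mrpl36 held 11.9, 8.83 and 13.7 CPM in NTN, against 8.32 and 4.01 CPM, without overlap and without passing (0.90, adjusted p = 0.132).

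Large subunit genes called in MyD88pko podocytes alone included Mrpl34, a counterpart of bacterial L34 with the ETS letters printed above. It held 11.3, 10.03 and 13.5 CPM in nephritic MyD88pko libraries, against 5.27 and 4.01 CPM (1.32 ± 0.38, adjusted p = 0.0219). Mrpl14, whose counterpart sits at the face toward the small subunit, held 6.31, 5.25 and 7.53 CPM, against 2.41 and 1.20 CPM (1.81 ± 0.47, adjusted p = 0.0136). Mrpl28 held 6.23, 5.81 and 10.01 CPM, against 1.04 and 3.47 CPM (1.71 ± 0.53, adjusted p = 0.0324). Mrps18a, a large subunit protein despite its name, held 15.2, 15.3 and 17.1 CPM, against 10.02 and 8.61 CPM (0.77 ± 0.24, adjusted p = 0.0349). Its PodTOM libraries did not overlap either, with 16.6, 18.8 and 16.2 CPM in NTN, against 12.5, 11.6 and 12.3 CPM, and did not pass (0.50, adjusted p = 0.086). Mrpl53 (1.03, adjusted p = 0.0484) shares 84.4% of its 31-base words, all of them with the gene model Gm42688, so its counts cannot be assigned to 1 gene with confidence. Mrps36, the dehydrogenase component, held 21.3, 16.4 and 24.9 CPM in nephritic MyD88pko libraries, against 10.8 and 10.1 CPM (1.00 ± 0.26, adjusted p = 0.0135), and 17.0, 13.6 and 16.4 CPM in nephritic PodTOM libraries, against 12.2, 10.8 and 11.4 CPM (0.45, adjusted p = 0.141).

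Of the L7/L12 stalk, which recruits translation factors to the ribosome, Mrpl11 at its base was called in PodTOM podocytes, with 12.5, 10.3 and 12.6 CPM in NTN, against 8.34, 7.36 and 6.47 CPM untreated (0.67 ± 0.24, adjusted p = 0.0486). The stalk protein Mrpl12 and Mrpl10, which carries it, did not pass in either genotype. Mrpl12 held 9.26, 5.86 and 9.71 CPM in nephritic MyD88pko libraries, against 9.69 and 6.74 CPM, and 11.1, 7.82 and 8.82 CPM in nephritic PodTOM libraries, against 8.88, 5.72 and 6.79 CPM. For Mrpl10 the PodTOM log2 fold change was -0.07, with a 95% interval from -0.63 to 0.48.

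Around the peptidyl transferase centre, Mrpl2 had log2 fold changes of 0.70 in MyD88pko and 0.74 in PodTOM podocytes, and Mrpl3 of 0.36 and 0.05, and neither passed. Of the tunnel exit proteins, Mrpl22, Mrpl23 and Mrpl24 did not pass either, and the PodTOM log2 fold changes were 0.25, -0.20 and -0.16. Mrpl45, which holds the large subunit at the inner membrane, had 12.01, 13.6 and 14.3 CPM in nephritic MyD88pko libraries, against 14.5 and 8.28 CPM, and 13.9, 13.0 and 14.2 CPM in nephritic PodTOM libraries, against 7.80, 14.8 and 13.1 CPM. Its groups overlapped in both genotypes. Mrpl18 and Mrpl38 of the central protuberance each had a log2 fold change of 1.05 in MyD88pko podocytes without passing (adjusted p = 0.108 and 0.0803), and 0.58 and 0.55 in PodTOM podocytes.

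Of the proteins with an enzyme fold, Mrpl44, which resembles ribonuclease III, held 5.01, 7.43 and 6.30 CPM in nephritic PodTOM libraries, against 1.47, 4.56 and 1.38 CPM in untreated ones. The log2 fold change of 1.32 ± 0.49 missed the threshold narrowly (adjusted p = 0.056). Mrpl58, the peptidyl-tRNA hydrolase Ict1 that became part of the large subunit, had 0.49 in MyD88pko and 0.57 in PodTOM podocytes (adjusted p = 0.262 and 0.126). Mrps30, a large subunit protein despite its name, had 0.56 and -0.03 (adjusted p = 0.218 and 0.951). Mrpl46 and Mrps11, which are transcribed away from each other, had fold changes of the same sign: Mrpl46 held 6.18, 4.87 and 7.76 CPM in nephritic MyD88pko libraries, against 1.04 and 3.81 CPM (1.37, adjusted p = 0.0694). Since strand was not kept in these libraries, reads in the stretch where both genes overlap cannot be told apart.

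Only 2 members were called lower. Mrpl55, the counterpart of bacterial L31, held 9.74, 9.05 and 14.3 CPM in nephritic PodTOM libraries, against 36.9, 25.2 and 13.5 CPM in untreated ones. The groups overlapped, because the third untreated library lay below the highest nephritic one, and the log2 fold change was -1.19 ± 0.31 (adjusted p = 0.0106). In MyD88pko podocytes its values of 11.8, 10.6 and 14.4 CPM in NTN, against 17.0 and 21.4 CPM, did not pass (-0.65, adjusted p = 0.172). Mrps17 held 35.6, 33.9 and 37.6 CPM in nephritic MyD88pko libraries, against 57.6 and 50.4 CPM untreated (-0.60 ± 0.18, adjusted p = 0.0297). This direction held for counts but not per length: the level was 27.1 ± 6.55 TPM in nephritic MyD88pko (n = 3) and 24.5 ± 3.71 TPM in untreated MyD88pko libraries (n = 2), and with counts scaled for transcript length the log2 fold change was 0.20.

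**Figure D4:**
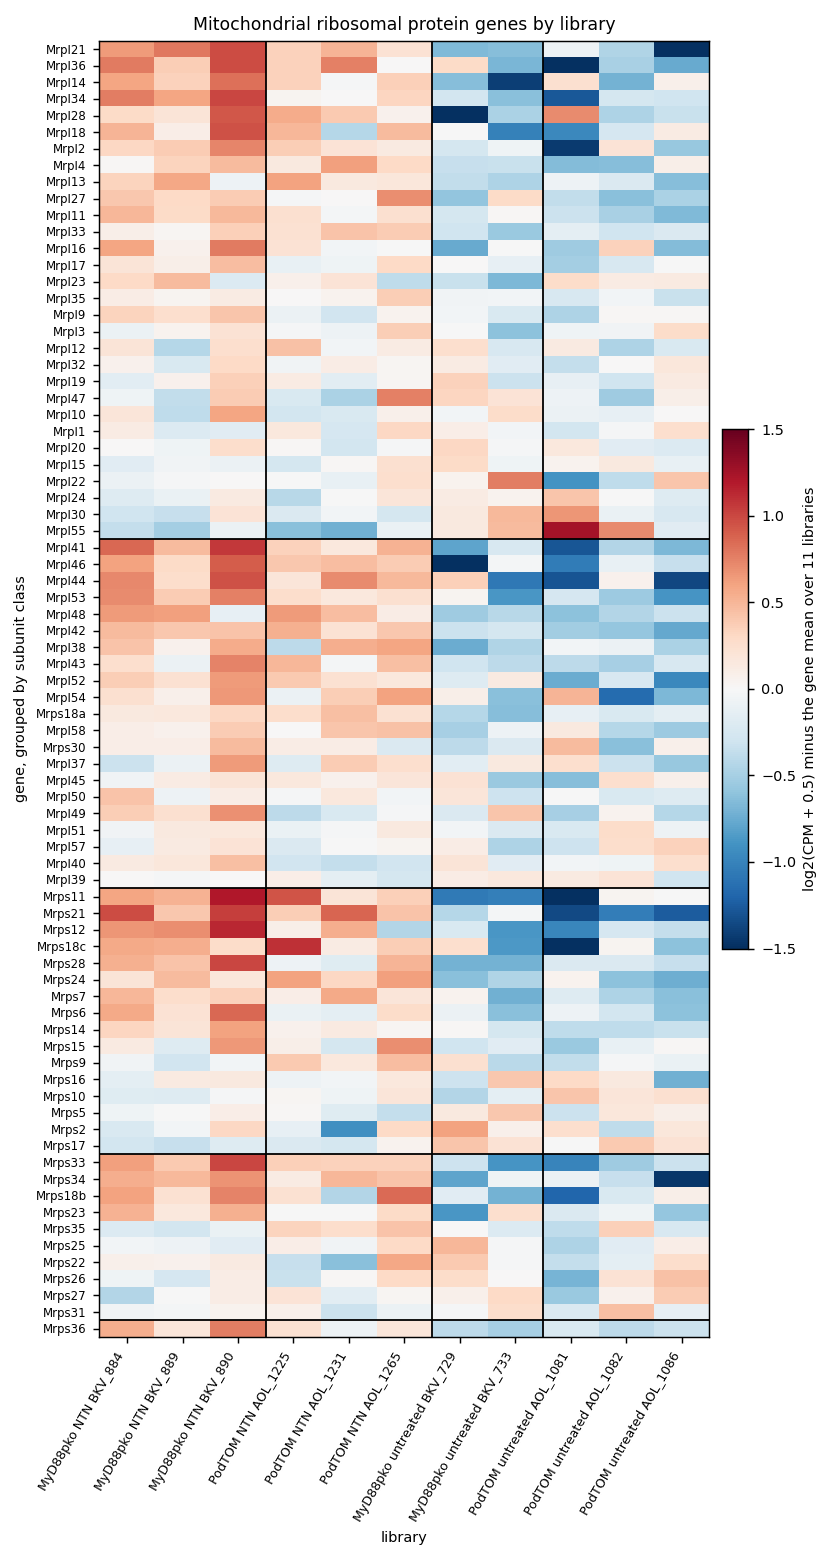
Log2 CPM of the 78 members in 11 libraries, each gene centred on its own mean, grouped by class and ordered within it by the mean of both fold changes, with nephritic libraries left of untreated ones and a line between groups. Members called higher are above their mean mostly in nephritic libraries, and Mrpl55 is above its mean in 4 of the 5 untreated libraries.

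Gene totals sum transcripts that need not encode the protein, and the members differed widely in this. Transcripts annotated as protein coding held 12.7% of the counts of Mrpl13, 21.8% of Mrps9, 24.4% of Mrpl23, 34.3% of Mrps10, 36.8% of Mrpl38 and 42.4% of Mrpl33. Tested on protein-coding transcripts alone, 16 members were higher and 1 lower in MyD88pko podocytes and 14 higher and 1 lower in PodTOM podocytes. In the same fits, 9.78% of all genes were higher and 8.44% lower in MyD88pko podocytes, and 13.9% higher and 10.5% lower in PodTOM podocytes. Of the 19 MyD88pko calls 16 were kept, and Mrpl21, Mrpl48 and Mrpl53 were lost. Of the 16 PodTOM calls 13 were kept, and Mrpl27, Mrpl48 and Mrps7 were lost. Only for Mrpl48 did the fold change itself become much smaller. On coding transcripts it was 1.61 for Mrpl21 (adjusted p = 0.0685) and 0.84 for Mrpl53 (adjusted p = 0.111) in MyD88pko podocytes. In PodTOM podocytes it was 0.80 for Mrpl27 (adjusted p = 0.0553) and 0.76 for Mrps7 (adjusted p = 0.0508).

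The transcripts of Mrpl33 differed in direction. The coding transcript Mrpl33-201 held 30.6, 26.1 and 39.5 CPM in nephritic MyD88pko libraries, against 4.55 and 3.66 CPM in untreated ones, and 25.6, 29.1 and 32.6 CPM in nephritic PodTOM libraries, against 3.29, 5.82 and 5.04 CPM. Mrpl33-205, annotated as a target of nonsense-mediated decay, held 6.77, 9.80 and 8.25 CPM in nephritic MyD88pko libraries, against 17.4 and 14.1 CPM, and 9.43, 11.9 and 14.1 CPM in nephritic PodTOM libraries, against 14.8, 14.6 and 15.3 CPM. Neither transcript overlapped between the conditions in either genotype. On coding transcripts alone the log2 fold change was 2.89 ± 0.31 (adjusted p = 4.1e-05) in MyD88pko and 2.63 ± 0.26 (adjusted p = 1.6e-05) in PodTOM podocytes, against 0.59 ± 0.18 (adjusted p = 0.0272) and 0.57 ± 0.16 (adjusted p = 0.014) for the gene total. The gene total changed less than its coding part. Transcript values were estimated by the authors' software from reads that several transcripts share, and the 2 transcripts were chosen for description after their values were seen.

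Mrpl48 showed the reverse case. Its total held 163, 160 and 95.8 CPM in nephritic MyD88pko libraries, against 72.4 and 78.1 CPM, and 163, 145 and 113 CPM in nephritic PodTOM libraries, against 67.9, 77.0 and 83.6 CPM (0.89 ± 0.22, adjusted p = 0.0115, and 0.88 ± 0.20, adjusted p = 0.00421). Transcript Mrpl48-203, which is annotated as processed without a coding frame, made up 49.9% of the counts and held 97.5, 103 and 34.9 CPM in nephritic MyD88pko libraries, against 23.4 and 25.7 CPM, and 98.0, 81.1 and 55.3 CPM in nephritic PodTOM libraries, against 18.7, 25.8 and 23.4 CPM. On coding transcripts alone the log2 fold changes were 0.24 (adjusted p = 0.284) and 0.26 (adjusted p = 0.184), so that the calls did not hold. With the vomeronasal signal as a covariate the gene total gave 0.093 (adjusted p = 0.873) in MyD88pko and 0.087 (adjusted p = 0.89) in PodTOM podocytes, and without the 3 libraries with most of this signal 0.39 (adjusted p = 0.407) and 0.76 (adjusted p = 0.00997). The gene total, and with it the high level of Mrpl48 among the members, includes this transcript.

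In Mrpl13, whose bacterial counterpart is an early-assembling protein, the retained-intron transcript Mrpl13-204 held 78.04% of the counts. The gene total stood at 44.6, 52.8 and 33.3 CPM in nephritic MyD88pko libraries, against 27.1 and 25.3 CPM (0.73 ± 0.24, adjusted p = 0.0397), and at 53.6, 39.1 and 39.8 CPM in nephritic PodTOM libraries, against 33.4, 30.1 and 22.5 CPM (0.62 ± 0.21, adjusted p = 0.0376). With the vomeronasal covariate these fold changes were 0.058 (adjusted p = 0.939) and -0.044 (adjusted p = 0.963), and without the 3 libraries 0.39 (adjusted p = 0.538) and 0.46 (adjusted p = 0.175). The coding transcript Mrpl13-205 held 9.09, 7.79 and 6.70 CPM in nephritic MyD88pko libraries, against 1.82 and 0.876 CPM, and 4.47, 4.60 and 4.06 CPM in nephritic PodTOM libraries, against 2.83, 0.838 and 1.37 CPM. Coding transcripts alone gave 2.50 (adjusted p = 0.0071) and 1.42 (adjusted p = 0.0369), in the direction of the totals.

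**Figure D5:**
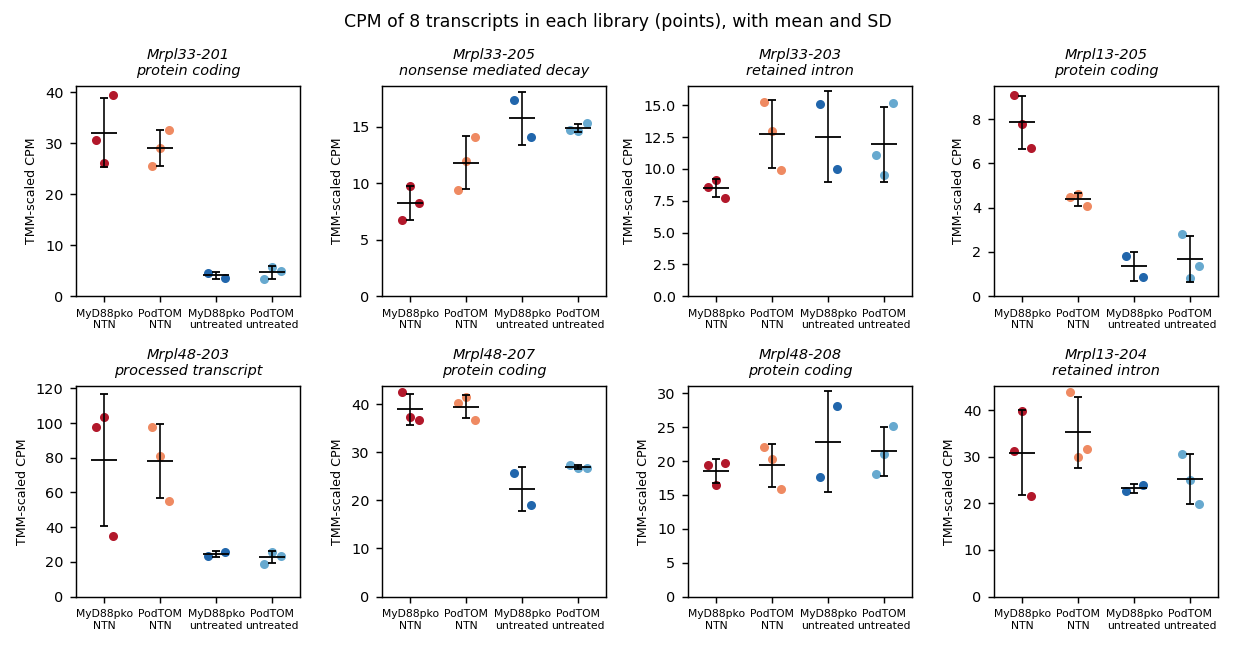
TMM-scaled CPM of single transcripts of Mrpl33, Mrpl48 and Mrpl13 in each of 11 libraries, with the annotated type in the panel title. Mrpl33-201 is higher and Mrpl33-205 lower in every nephritic library than in any untreated library of the same genotype.

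MyD88pko podocytes were compared with PodTOM podocytes to ask whether the knockout changes these genes. In NTN, 0 members were called in edgeR or in DESeq2, against 0% higher and 0.0613% lower of all genes. At an unadjusted p under 0.05, 5 members were higher (Mrpl49, Mrps6, Mrpl40, Mrpl9 and Mrpl34) and 1 lower (Mrps35), against 2.55% and 3.49% of all genes. These genes were chosen after their values were seen. Mrpl49 had the smallest p, with 28.9, 26.4 and 36.1 CPM in nephritic MyD88pko libraries, against 16.8, 18.9 and 21.9 CPM in nephritic PodTOM libraries (log2 fold change 0.66, 95% interval 0.18 to 1.15, edgeR adjusted p = 0.594). The median over members was 0.12.

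In untreated mice, 0 members were called in edgeR or DESeq2 as well, against 0% higher and 0.0189% lower of all genes. At an unadjusted p under 0.05, 2 were higher (Mrps21 and Mrpl52) and 4 lower (Mrps10, Mrpl28, Mrpl23 and Mrpl14), against 2.56% and 3.04% of all genes. For Mrps21 the untreated MyD88pko libraries at 9.37 and 12.6 CPM lay above the untreated PodTOM libraries at 4.71, 5.99 and 5.09 CPM (1.05, 95% interval 0.46 to 1.65, edgeR adjusted p = 0.544). The median over members was 0.07.

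The difference between the NTN responses, MyD88pko minus PodTOM, was tested as an interaction, and 0 members passed in edgeR or DESeq2, against 0% higher and 0.00472% lower of all genes. At an unadjusted p under 0.05, 3 members had a larger response in MyD88pko podocytes (Mrpl14, Mrps28 and Mrpl23) and 1 a smaller one (Mrps25), against 2.76% and 3.05% of all genes. Mrps25 shares 68.9% of its 31-base words, all of them with Nr2c2 (mean 138 CPM, scaled by library totals alone). Mrpl23 shares 14.1%, most of them with the pseudogene Mrpl23-ps1. For Mrpl14 the difference was 1.46, with a 95% interval from 0.20 to 2.73 and an edgeR adjusted p of 0.785. For Mrpl42 it was -0.29, with an interval from -0.79 to 0.21, which includes 0. Calls in 1 genotype only are therefore not shown to differ between the genotypes.

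Genes that work beside these proteins were read from lists, whose counts stand against 15.9% higher and 9.93% lower among all genes in PodTOM podocytes and 11.3% and 8.22% in MyD88pko podocytes. Of 5 mitoribosomal proteins without an Mrp symbol (Dap3, Ptcd3, Aurkaip1, Chchd1 and Gadd45gip1), 0 were called in either genotype by edgeR or DESeq2, and at an unadjusted p under 0.05 in edgeR 2 were higher in PodTOM podocytes and 0 in MyD88pko podocytes. Dap3, a GTP-binding small subunit protein, held 20.9, 21.8 and 21.4 CPM in nephritic MyD88pko libraries, against 28.9 and 23.6 CPM.

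The next list held 15 genes, mitochondrial translation factors and proteins that act beside them, such as Lrpprc, Slirp, Oxa1l and Mtfmt. Of these 15, 4 fell (26.7%) in PodTOM podocytes and 0 rose (2 at an unadjusted p under 0.05 in edgeR, 0 in DESeq2). In MyD88pko podocytes 3 fell (20%) and 2 rose (13.3%). The median log2 fold changes were -0.22 and -0.16. Tsfm, the exchange factor of the elongation factor Tufm, fell in both genotypes, with 10.2, 12.8 and 14.7 CPM in nephritic MyD88pko libraries, against 34.1 and 29.3 CPM (-1.33 ± 0.39, adjusted p = 0.0254), and 4.03, 10.6 and 16.5 CPM in nephritic PodTOM libraries, against 33.9, 28.5 and 23.4 CPM (-1.46 ± 0.36, adjusted p = 0.00863). The initiation factor Mtif2 also fell in both (-0.62, adjusted p = 0.0351, and -0.61, adjusted p = 0.0195). The elongation factor Gfm1 (-0.68, adjusted p = 0.0146) and the recycling factor Mrrf (-0.89, adjusted p = 0.0184) fell in PodTOM podocytes, and the release factor Mtrf1l fell in MyD88pko podocytes (-1.13, adjusted p = 0.0137). Tufm rose in MyD88pko podocytes, with 16.5, 16.1 and 16.3 CPM in NTN, against 7.28 and 5.87 CPM (1.31 ± 0.32, adjusted p = 0.0108), and held 10.9, 9.78 and 18.4 CPM in nephritic PodTOM libraries, against 12.7, 14.9 and 9.37 CPM. Lrpprc, which binds and stabilizes mitochondrial mRNAs, rose in MyD88pko podocytes (0.64, adjusted p = 0.0344).

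Of 17 mitochondrial aminoacyl-tRNA synthetases, which charge the tRNAs the ribosome uses, 4 fell (23.5%) and 1 rose (5.88%) in PodTOM podocytes, and 4 fell (23.5%) and 0 rose in MyD88pko podocytes, with the same counts in edgeR and DESeq2. At an unadjusted p under 0.05 in edgeR, 5 were lower and 3 higher in PodTOM podocytes, and 4 lower and 0 higher in MyD88pko podocytes. Nars2 held 91.0, 68.4 and 83.2 CPM in nephritic MyD88pko libraries, against 149 and 192 CPM (-1.07 ± 0.19, adjusted p = 0.00132), and 80.7, 85.5 and 75.9 CPM in nephritic PodTOM libraries, against 120, 163 and 184 CPM (-0.95 ± 0.18, adjusted p = 0.00122). Iars2 (-0.82, adjusted p = 0.00457, and -0.94, adjusted p = 0.000663) fell in both genotypes as well. In both of these genes every nephritic library lay below every untreated library of its genotype. Pars2 fell in PodTOM podocytes (-1.51, adjusted p = 0.0068) and Tars2 in MyD88pko podocytes (-0.88, adjusted p = 0.0137). The synthetase that rose was Lars2 in PodTOM podocytes, with 29386, 35905 and 28109 CPM in NTN, against 24322, 16516 and 13027 CPM untreated (0.79, adjusted p = 0.0153). Its counts, which are not scaled for length, were far above those of the other synthetases, of which Nars2 had the highest mean at 116 CPM. In MyD88pko podocytes Lars2 held 27232, 23979 and 37030 CPM in NTN, against 36036 and 32138 CPM (-0.21, adjusted p = 0.554). Its untreated MyD88pko values thus lay above all untreated PodTOM values.

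Of 24 genes for mitoribosome assembly and rRNA modification, 2 rose (8.33%) in PodTOM podocytes, and 3 rose (12.5%) and 1 fell (4.17%) in MyD88pko podocytes, so that the shares that rose were below and close to those of all genes. Mrm1, which methylates the large ribosomal RNA, rose in both, with 6.79, 4.39 and 7.49 CPM in nephritic MyD88pko libraries, against 2.28 and 2.94 CPM (1.26 ± 0.42, adjusted p = 0.0444), and 4.402, 5.12 and 5.78 CPM in nephritic PodTOM libraries, against 2.01, 1.59 and 1.57 CPM (1.57 ± 0.37, adjusted p = 0.0065). Eral1, a chaperone of the small ribosomal RNA, rose in PodTOM podocytes (0.74, adjusted p = 0.049). The GTPase gene Mtg1 and the assembly gene Ngrn rose in MyD88pko podocytes (1.88, adjusted p = 0.031, and 1.26, adjusted p = 0.026), and the helicase gene Dhx30 fell there (-0.60, adjusted p = 0.0227).

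Of 15 genes for mitochondrial transcription and RNA processing, 0 were called in PodTOM podocytes by edgeR or DESeq2 (2 higher at an unadjusted p under 0.05), and 2 rose in MyD88pko podocytes (13.3%, close to the share of all genes), the RNase P subunit gene Hsd17b10 (1.24, adjusted p = 0.0315) and the transcription factor gene Tfb2m (0.71, adjusted p = 0.04). Of 9 regulators of mitochondrial gene expression, 0 were called by edgeR in either genotype, 1 was lower in each by DESeq2, and at an unadjusted p under 0.05 in edgeR 1 was lower in MyD88pko and 2 in PodTOM podocytes. Among them Gabpa, which encodes the ETS-family subunit of GABP, held 69.3, 57.5 and 67.3 CPM in nephritic MyD88pko libraries, against 94.7 and 83.3 CPM (-0.46, adjusted p = 0.0636), and 62.1, 70.2 and 61.2 CPM in nephritic PodTOM libraries, against 75.9, 79.6 and 98.2 CPM (-0.39, adjusted p = 0.0674). Nrf1 stood at 31.5, 37.1 and 34.7 CPM in nephritic MyD88pko libraries, against 42.3 and 43.0 CPM, and at 42.9, 32.9 and 55.2 CPM in nephritic PodTOM libraries, against 26.7, 37.0 and 39.5 CPM. Neither regulator passed the test.

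Of the 25 members called higher in at least 1 genotype, 22 had a listed start region. The ETS letters stood in 11 of these 22 (50%), against 37.7% of the 69 members and 13.4% of all protein-coding genes. The YY1 letters stood in 6 (27.3%, against 15.9% and 3.82%) and the SP1 letters in 5 (22.7%, against 18.8% and 17.9%). The NRF1 letters stood in 2 (9.09%, against 23.2% and 10.04%), as did the TATA letters (9.09%, against 7.25% and 14.3%). These shares describe the called members and were not tested.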

How the data were processed

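The authors used cutadapt for trimming and kallisto for pseudoalignment to Ensembl transcripts (GRCm38), which gave the deposited estimated counts, not scaled between libraries, and the deposited effective lengths. The submitters' processing notes also name sleuth, FastQC and SAMtools. RNA had been amplified before an unstranded library preparation, so counts are not independent molecules. Counts of 107987 of 109282 transcripts were matched to GENCODE genes, summed over 34547 genes and rounded. TPM was recomputed from counts and lengths.

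Genes were kept by filterByExpr (minimum count 10), scaled by TMM and tested in edgeR 4.0.16 (R 4.3.3) with the robust quasi-likelihood F test, 1 coefficient for each of 4 groups and all 11 libraries, with Benjamini-Hochberg adjustment of p-values over 21200 genes. CPM are TMM-scaled, and an error after a log2 fold change is its SE. The study's transcript-level test with sleuth was not repeated. DESeq2 1.42.0 and limma 3.58.1 served as alternatives, beside other scalings, filters and transcripts, a covariate, and fits without libraries. Scripts were tested on simulated data. Shared sequence was counted as 31-base words found in transcripts of other genes.

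The members and lists were chosen with earlier results of these data known. Named were up to 12 called members per direction and comparison, the 5 highest and 5 lowest by TPM, 21 members with well known roles, up to 4 called genes of each other list per comparison, and Myd88. Within each group, every pair of libraries differed by more than counting noise. The results of some list members are not reported here.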

Additional observations from a re-analysis of the deposited data

How the results depend on the processing

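The median log2 fold change of the members for NTN stayed above 0 in both genotypes under all 24 alternatives that were run, whereas the counts of calls varied. With no filter the members' medians of 0.37 in PodTOM and 0.50 in MyD88pko podocytes lay below those of all genes (0.51 and 0.63). In PodTOM podocytes, 15 members were higher and 1 lower. With a mean of at least 5 CPM 25 of 72 members tested were higher (19.8% of all genes). With the vomeronasal signal as a covariate 4 were higher (2.95% of all genes) and 0 lower (0.675%). Without the 3 libraries with most of this signal 5 were higher (7.16%) and 0 lower (5.95%). The signal did not overlap between the conditions, so a fit with this covariate cannot fully separate it from NTN. Limma on log2(TPM + 1) called 10 higher (7.72% of all genes) and 3 lower (19.1%), with a median of 0.22. On log2(TPM + 0.1) it called 11 higher (8.75%) and 3 lower (19.3%), with a median of 0.23. The covariate gave a median of 0.65. Leaving out 1 library gave 7 to 17 higher (9.61% to 19.1% of all genes), 1 lower (6.25% to 11.7%) and medians of 0.29 to 0.43. In MyD88pko podocytes, the covariate gave 5 higher (4.05% of all genes) and 0 lower (1.23%) with a median of 0.64. Without the 3 libraries the median was 0.60. With length-scaled counts, library totals only or a mean of at least 5 CPM, 0 were lower (7.23%, 6.71% and 11.6% of all genes). The medians there were 0.63, 0.61 and 0.62. With no filter, 0 were lower as well (5.4% of all genes). Leaving out 1 library gave medians of 0.39 to 0.59. Where both untreated MyD88pko libraries stayed in, 8 to 21 were higher (6.60% to 15.2% of all genes) and 0 to 1 lower (4.01% to 11.1%). Where 21 were higher, the share of all genes was 12.3% or 13.3%. Between the genotypes in NTN the median was 0.35 and 0.37 under limma with a pseudocount of 1 and 0.1 and 0.32 without the 3 libraries. For the difference of the responses these values were 0.26, 0.28 and 0.23. Leaving out 1 library gave medians of 0.05 to 0.21 for the genotypes in NTN, of -0.061 to 0.11 in untreated mice and of -0.07 to 0.11 for the difference. No alternative called a member between genotypes or for the difference. The cause of these changes was not tested.

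Of single genes, Mrpl13 turned to -0.044 in PodTOM podocytes with the covariate and was 0.058 in MyD88pko podocytes, and Mrpl48 was 0.087 in PodTOM and 0.093 in MyD88pko podocytes, with no call. Mrps17 turned to 0.20 in MyD88pko podocytes with length-scaled counts and to 0.12 and 0.13 under limma with a pseudocount of 1 and 0.1. The called members gave 1290 values under alternatives over both NTN comparisons, including the comparison in which a member was not called. Of these values, 1054 kept direction and side of the threshold, 209 lost and 22 gained a call. The PodTOM calls kept in every fit without 1 library were Mrps21, Mrpl42, Mrpl48, Mrps33 and Mrpl55 (5 of 16), of which Mrpl48 and Mrpl55 were lost with the covariate, and 0 of 19 MyD88pko calls were kept in all of them. The median of all genes, which was 0.19 in PodTOM podocytes, was 0.28 when library totals alone set the scale. It was -0.16 under limma with a pseudocount of 1, which tests 17557 genes on another measure.

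With 2 or 3 libraries a group, small differences were not detectable, in particular for those members that stood at 1 to 10 CPM. No paired analysis was possible because the labels give no replicate numbers shared between groups.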
